A study of Mus musculus with 12 samples.

Results

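Acetylcholine receptors of the mouse prefrontal cortex were followed after the end of repeated cocaine treatment. The set held 9 genes, taken by gene name from the deposited tables of gene expression: the muscarinic receptors Chrm1, Chrm2, Chrm3 and Chrm4, and the nicotinic subunits Chrna3, Chrna4, Chrna5, Chrna7 and Chrnb2. The tables name 40296, 40310 and 40265 genes at 2 h, 24 h and 7 d. Male C57BL/6 mice aged 10 weeks received intraperitoneal injections of cocaine (20 mg/kg per day) or saline for 14 days, and the prefrontal cortex was taken 2 h, 24 h or 7 d after the final injection. The saline mice of each time point thus carried the same course of daily injections without the drug. Each of the 6 groups gave 2 libraries of 5 pooled mice (10 mice per group), and the tissue spanned frontal association, prelimbic and orbital cortex. Messenger RNA was sequenced from whole tissue, so that fewer cells of a type and less RNA per cell cannot be told apart.

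Acetylcholine reaches the cortex mainly from neurons of the basal forebrain, and it acts there on muscarinic and nicotinic receptors. Muscarinic receptors couple to G proteins. M1 and M3 (Chrm1, Chrm3) act through Gq and phospholipase C and close the potassium channels of the M-current, which raises the excitability of pyramidal cells, whereas M2 and M4 (Chrm2, Chrm4) act through Gi and Go, lower cyclic AMP and often limit transmitter release. Nicotinic receptors are cation channels assembled from several subunits. Those built from alpha4 and beta2, with alpha5 as an accessory subunit in deep cortical layers, and those built from alpha7 alone are the main forms in cortex, whereas alpha3 is best known from autonomic ganglia and the medial habenula.

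Levels are given as FPKM, the fragments of a gene scaled to transcript length and to the mapped fragments of the library, which is a measure per length and can be compared between genes. The deposited tables, 1 per time point, hold 1 FPKM for saline and 1 for cocaine, each pooled over both libraries of the group, so the spread between libraries and the depth behind a value are unknown from them and no test within a time point was made. A log2 ratio is that of cocaine + 1 over saline + 1 FPKM, which understates the change of low genes. A gene passed the filter with a mean of at least 1 FPKM at that time point, and it was past the fold threshold where the log2 ratio was at least 0.32 in size, so that the higher group stood at least 25% above the lower on this scale. The tables were normalized separately, so levels set side by side across time points carry that limit.

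Genes of pyramidal neurons and of neuronal activity are given first, as values beside the receptors. The pyramidal neuron genes Slc17a7 (a vesicular glutamate transporter) and Camk2a stood at 466 to 532 and 844 to 1048 FPKM over the 6 groups. The genes Fos, Arc, Egr1 and Nr4a1, which neurons induce on activity, were all past the fold threshold and higher in cocaine at each time point. For Fos the FPKM was 2.02 under saline and 14.3 under cocaine at 2 h, 3.95 against 9.24 at 24 h, and 1.59 against 4.66 at 7 d.

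The receptors fell into separate levels (the plot of receptor FPKM in the 6 groups). Chrm1 was the highest in every group at 30.3 to 47.8 FPKM, and Chrm3 followed at 17.7 to 20.6 FPKM. Chrm4 (5.43 to 11.4 FPKM) and Chrnb2 (6.51 to 8.85 FPKM) overlapped and changed places between groups, the 7 d values of Chrnb2 coming from a locus joined with a neighbouring gene. Chrna4 (3.65 to 4.41 FPKM) and Chrna7 (3.54 to 4.26 FPKM) overlapped too, Chrna4 being the higher at 2 h and 24 h and Chrna7 at 7 d. Below them Chrm2 stood at 0.857 to 1.22 FPKM, Chrna5 at 0.142 to 0.422 FPKM and Chrna3 at 0.0463 to 0.101 FPKM. The ranges of the other neighbours in this order did not overlap. The muscarinic genes summed to 54.6 to 79.8 FPKM and the nicotinic genes to 14.9 to 17.4 FPKM, and Chrm1 alone made up 55.4% to 60.1% of the muscarinic sum.

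**Figure D1:**
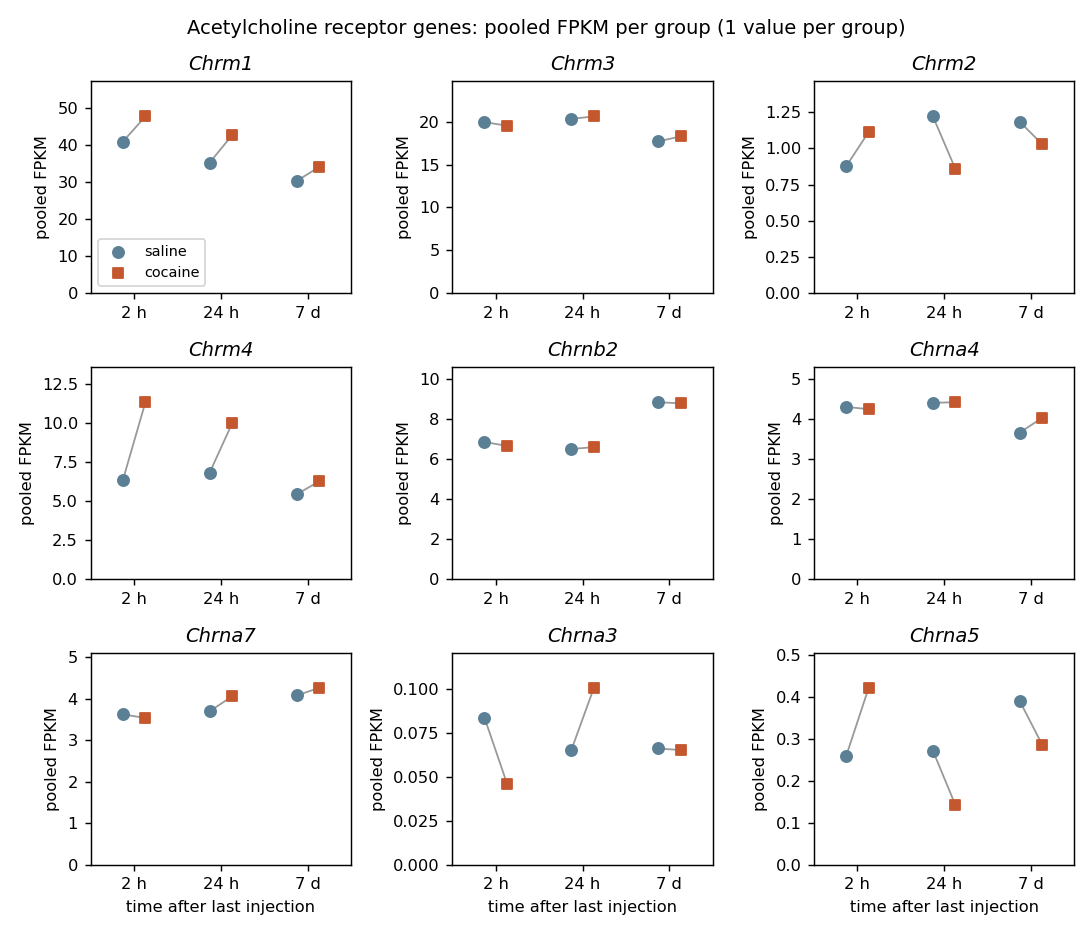
Pooled FPKM of the 9 receptor genes, 1 panel per gene with its own linear axis from 0, in the saline (circles) and cocaine (squares) groups of each time after the final injection, with a line joining the 2 groups of a time point. Chrm1 is highest throughout, and Chrm4 at 2 h (6.35 in saline, 11.4 in cocaine) and at 24 h (6.83 and 10.0) shows the widest relative gap among the genes above 1 FPKM.

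Of the 9 receptors, 6 passed the filter at 2 h, 7 at 24 h and 7 at 7 d. Past the fold threshold stood 1 at 2 h and 1 at 24 h, Chrm4 each time and higher in cocaine, and 0 at 7 d. Over all genes that passed the filter, the share past the threshold in either direction was 7.91% at 2 h (1097 of 13871 genes), 4.99% at 24 h (703 of 14079) and 8.78% at 7 d (1224 of 13938). The share past it and higher in cocaine was 4.72%, 2.63% and 3.03%. At 7 d 34.6% of the genes past the threshold were higher in cocaine, and of those with a known transcript length 31.2% were before and 53.4% after the trend of the ratio with length was taken out. The median log2 ratio of the receptors that passed was -0.02, 0.02 and 0.05 at the successive time points, beside 0.02, 0.01 and -0.01 over all genes.

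Chrm4, the Gi-coupled M4 receptor, lies on chromosome 2 at 91921990 to 91932297 (GRCm38; from 91920528 in the table of 7 d). These positions are locus spans of the tables, and for the other receptors those of the 2 h table on the same build. A locus span can be wider than the RefSeq gene. In RefSeq Chrm4 spans 91922189 to 91929835, Chrm2 36387991 to 36528638, Chrm3 9875486 to 10361062 and Chrnb2 89753448 to 89764632. The FPKM of Chrm4 was 6.35 under saline and 11.4 under cocaine at 2 h. At 24 h the values were 6.83 and 10.0 FPKM, and at 7 d 5.43 and 6.27 FPKM. The cocaine values of 2 h and 24 h lay above all 3 saline values, and that of 7 d lay within their range. The plain ratio of cocaine to saline was 1.79, 1.47 and 1.15 at the successive time points, and the log2 ratio was 0.75, 0.49 and 0.18. At 2 h 162 of 13871 genes had a higher log2 ratio than Chrm4, at 24 h 210 of 14079, and at 7 d 1683 of 13938. Among genes within a factor of 2 of its mean FPKM, 64 of 5281 had a higher ratio at 2 h and 58 of 5284 at 24 h. Being past the threshold and higher in cocaine at both 2 h and 24 h was found for 0.727% of genes that passed the filter in all 3 tables (97 of 13350). With a threshold of 1.5-fold, Chrm4 was past it at 2 h only. The difference between time points was not tested, since each group is a single pooled value.

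In each table Chrm4 shares its locus span with Mdk, the gene of the growth factor midkine, all 2493 bases of which lie within it. The RefSeq genes themselves overlap by 31 bases, and the library kit does not mark strand, so that reads in the overlap cannot be told apart. Mdk had 14.2 FPKM under saline and 14.5 under cocaine at 2 h, 16.5 against 13.7 at 24 h, and 15.8 against 13.1 at 7 d. At 7 d a further gene of the span, Gm10805, had 0.543 FPKM under saline and 1.17 under cocaine. The part of overlapping reads in the Chrm4 ratio was not tested. Chrm4 is abundant in striatum, which borders the frontal cortex, and the striatal marker list was read for that reason. Of its 12 genes in the tables, 8 passed the filter. Past the fold threshold was 1 of them at 2 h (Pde10a, a striatal phosphodiesterase, 4.34 and 5.86 FPKM), 0 at 24 h, and 2 at 7 d (Adora2a higher, Tac1 lower). The summed FPKM of the list was 158 under saline and 167 under cocaine at 2 h, 145 against 151 at 24 h, and 147 against 151 at 7 d. Its defining dopamine receptors stayed below 1 FPKM in every group, Drd1a at 0.648 to 0.925 and Drd2 at 0.146 to 0.234, and both were lower in cocaine at 2 h. Hemoglobin genes were higher in cocaine at 2 h, when 4 of 5 red blood cell markers were past the threshold and their summed FPKM was 323 under saline and 504 under cocaine. At 24 h 0 of 5 were past it, with sums of 458 and 504 FPKM, and at 7 d 1 of 5, with sums of 452 and 529 FPKM. The part of these markers in the Chrm4 ratio was not tested.

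The upstream sequences of Chrm4, Chrm2 and Chrnb2 are shown to place the gene past the threshold beside another Gi-coupled receptor and beside a nicotinic subunit with level values. Each is the stretch of 250 bases before the start that the RefSeq promoter table uses (GRCm38.p6), read 5′ to 3′ on the strand of the gene. They are Chrm4 at chr2:91921939-91922188 (plus strand), Chrm2 at chr6:36387834-36388083 (plus strand) and Chrnb2 at chr3:89764633-89764882 (minus strand). For Chrm2 the RefSeq gene span begins further upstream than that start, and the last 93 bases of the stretch, its capitals included, lie within the span. Capitals mark matches to the GC box or to the short CRE core described after the sequences.
Chrm4: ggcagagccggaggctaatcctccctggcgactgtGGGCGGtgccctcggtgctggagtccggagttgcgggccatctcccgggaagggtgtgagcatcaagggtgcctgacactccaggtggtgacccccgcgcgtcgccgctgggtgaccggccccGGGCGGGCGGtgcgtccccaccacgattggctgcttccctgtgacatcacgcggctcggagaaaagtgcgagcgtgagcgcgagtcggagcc
Chrm2: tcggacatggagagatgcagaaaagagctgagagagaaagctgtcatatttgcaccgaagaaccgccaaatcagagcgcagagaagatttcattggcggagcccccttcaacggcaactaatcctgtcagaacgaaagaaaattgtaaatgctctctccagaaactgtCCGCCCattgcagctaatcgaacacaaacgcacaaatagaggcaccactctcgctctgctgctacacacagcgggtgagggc
Chrnb2: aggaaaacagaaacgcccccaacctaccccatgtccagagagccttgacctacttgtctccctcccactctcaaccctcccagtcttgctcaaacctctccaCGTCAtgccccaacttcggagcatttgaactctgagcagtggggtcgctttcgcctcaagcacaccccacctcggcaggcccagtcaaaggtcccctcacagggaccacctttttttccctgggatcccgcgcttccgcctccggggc
The letters of 6 motifs were searched on both strands. The GC box GGGCGG, bound by Sp factors, matched 3 times in Chrm4, beginning 215, 92 and 88 bases before the start with the last pair overlapping, once in Chrm2 and not in Chrnb2. It is held by 32.7% of 32851 mouse promoters of this length. The short CRE core TGACG matched once, in Chrnb2, and is held by 17.8% of promoters. The full CRE TGACGTCA (1.55% of promoters), the Egr motif GCGTGGGCG (0.536%), the AP-1 motif TGANTCA (6.75%) and the E-box CACGTG (6.02%) matched in none of these sequences. The GC content was 70% for Chrm4, 50% for Chrm2 and 59.6% for Chrnb2, beside a median of 52.4% over all promoters. RefSeq promoters were found for 8 of the 9 receptor genes, Chrm1 having no entry in the table.

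Chrm1, the M1 receptor of pyramidal cells, lies on chromosome 19 at 8663587 to 8686771 and was higher in cocaine at each time point. Its FPKM was 41.0 under saline and 47.8 under cocaine at 2 h, 35.3 against 42.8 at 24 h, and 30.3 against 34.1 at 7 d. The 2 h and 24 h cocaine values lay above all 3 saline values, but the saline values themselves spanned a factor of 1.35. The log2 ratio was 0.22, 0.27 and 0.16 at the successive time points, each under the fold threshold. At 7 d it was 0.09 once the length trend was removed. A second, lower locus of the same name and another gene, Gm22820, share the Chrm1 span. The second locus had 2.67 FPKM under saline and 3.61 under cocaine at 2 h, 1.03 against 2.19 at 24 h, and 2.45 against 2.91 at 7 d. Gm22820 had 6.05 FPKM under saline and 8.71 under cocaine at 2 h, 5.04 against 6.56 at 24 h, and 3.73 against 5.28 at 7 d. Both were thus higher in cocaine at each time point as well. Reads on any bases that they share with the main Chrm1 locus cannot be told apart, and the extent of such bases was not measured.

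Chrm3, the other Gq-coupled receptor, was level. It lies on chromosome 13 at 9875404 to 10658893 and had 19.9 FPKM under saline and 19.5 under cocaine at 2 h, 20.3 against 20.6 at 24 h, and 17.7 against 18.3 at 7 d, with log2 ratios of -0.03, 0.02 and 0.05. Set against the level Chrm3, Chrm4 stood closer to it in cocaine. The ratio of Chrm3 to Chrm4 FPKM was 3.14 under saline and 1.72 under cocaine at 2 h, 2.98 against 2.06 at 24 h, and 3.26 against 2.92 at 7 d. The share of Chrm4 in the muscarinic sum was 9.31% under saline and 14.2% under cocaine at 2 h, 10.7% against 13.5% at 24 h, and 9.95% against 10.5% at 7 d.

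Chrm2, the Gi-coupled M2 receptor, lies on chromosome 6 at 36209620 to 36528414 and was low. It had 0.875 FPKM under saline and 1.11 under cocaine at 2 h, 1.22 against 0.857 at 24 h, and 1.18 against 1.03 at 7 d. It passed the filter at 24 h and 7 d only, and its log2 ratio was 0.17, -0.26 and -0.11 at the 3 time points. At 24 h the plain ratio was 0.702, and Chrm2 was past the fold threshold without the added 1 FPKM but not with it. The gene overlaps 9330158H04Rik, which had 0.495 FPKM under saline and 0.850 under cocaine at 2 h, 0.527 against 0.470 at 24 h, and 0.747 against 0.450 at 7 d, on the same side of saline as Chrm2 each time.

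**Figure D2:**
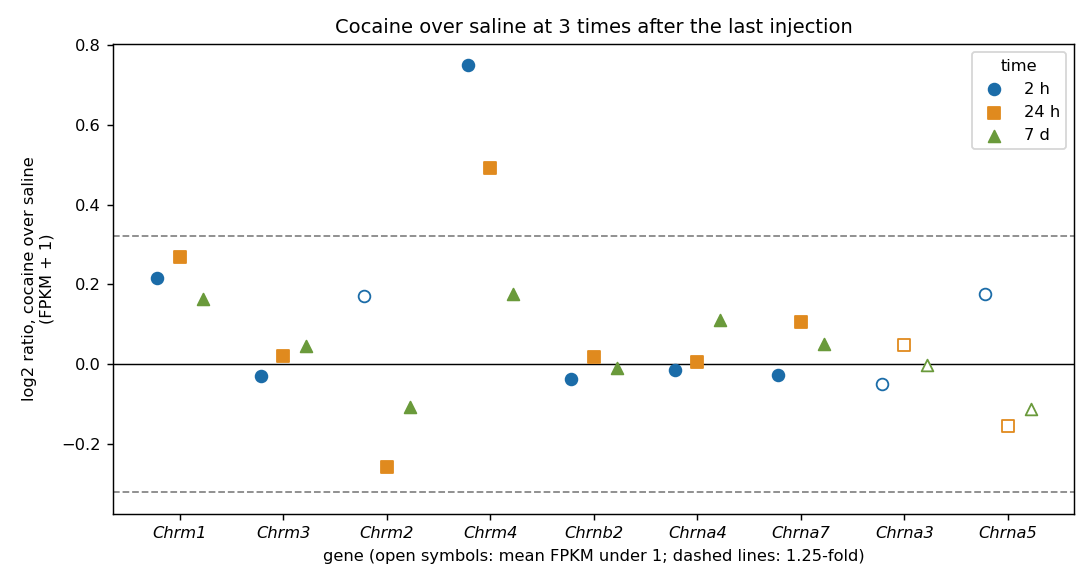
Log2 ratio of cocaine to saline (1 FPKM added to each) of each receptor at 2 h, 24 h and 7 d, with open marks for values under the filter of 1 FPKM and dashed lines at the fold threshold. Chrm4 alone crosses the line, at 2 h (0.75) and 24 h (0.49), and all values of the other receptors stay between the lines.

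The nicotinic subunits that passed the filter were close to saline. Chrnb2, the beta2 subunit, lies on chromosome 3 at 89715022 to 89765615. It had 6.85 FPKM under saline and 6.66 under cocaine at 2 h, 6.51 against 6.60 at 24 h, and 8.85 against 8.79 at 7 d. In the table of 7 d this locus is joined with 4632404H12Rik and ends at 89773516, so the higher level there includes that gene. In all 3 tables Chrnb2 also shares its locus span with Adar, an RNA-editing enzyme, 98.6% of whose RefSeq span lies within it, although the RefSeq genes overlap by only 8 bases. Adar stood at 22.8 to 28.2 FPKM, and reads of the shared bases cannot be told apart. Chrna4, the alpha4 subunit that pairs with beta2 (chromosome 2, 181018216 to 181043546), had 4.29 FPKM under saline and 4.24 under cocaine at 2 h, 4.40 against 4.41 at 24 h, and 3.65 against 4.02 at 7 d. Chrna7, the alpha7 subunit (chromosome 7, 63095272 to 63212537), had 3.62 and 3.54 FPKM at 2 h, 3.70 against 4.06 at 24 h, and 4.08 against 4.26 at 7 d. The log2 ratios of these 3 subunits ran from -0.04 (Chrnb2 at 2 h) to 0.11 (Chrna4 at 7 d and Chrna7 at 24 h).

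Chrna5 and Chrna3 lie side by side on chromosome 9, at 54980880 to 55007779 and 55011343 to 55026559, and were under the filter in all 3 tables. Their RefSeq spans share 1304 bases. Chrna5, the accessory alpha5 subunit, had 0.259 FPKM under saline and 0.422 under cocaine at 2 h, 0.272 against 0.142 at 24 h, and 0.391 against 0.286 at 7 d. Chrna3 had 0.0839 and 0.0463 FPKM at 2 h, 0.0654 against 0.101 at 24 h, and 0.0663 against 0.0654 at 7 d. The cocaine value lay on different sides of saline at different times in both genes, and at these levels a difference was not detectable from single pooled values.

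A shift shared by the 3 time points was tested with limma, taking each difference within its own table, on 13972 genes. The fit has 2 residual degrees of freedom, and a change at a single time point counts in it as spread. By limma with Benjamini-Hochberg adjustment 0% of genes passed an adjusted p of 0.05 (0 of 13972), and 7.61% had an unadjusted p under 0.05 (1063 genes). Of the 7 receptors fitted, 0 passed the adjusted threshold and 2 had an unadjusted p under 0.05 (Chrm1 and Chrm4; without the table of 24 h, Chrm1 only). The shift of Chrm1 was 0.22 on the log2 scale (SE 0.0426, limma adjusted p = 0.631), with cocaine higher in 3 of 3 tables. That of Chrm4 was 0.47 (SE 0.121, limma adjusted p = 0.631), also in 3 of 3 tables. The other 5 shifts ran from -0.06 (Chrm2) to 0.04 (Chrna7), with adjusted p values of 0.794 to 0.952 by limma. Chrm1 and Chrm4 were the 2 of 6 receptors within the filter in all tables that were higher in cocaine each time, against 18.6% of all genes (2487 of 13350). No adjusted p fell under 0.05 for a receptor when a table was left out, and without the table of 2 h the Chrm4 shift was 0.33.

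The 5 genes whose log2 ratios at the 3 time points lay nearest to those of Chrm4 were Gpr3, Stk40, Plk3, Spry4 and Midn, at a root mean square distance of 0.0526, 0.0546, 0.0592, 0.0682 and 0.0728. They share the pooled libraries of Chrm4, and the likeness is over 3 ratios only. Gpr3, a constitutively active receptor coupled to Gs, had log2 ratios of 0.72, 0.47 and 0.26 at 2 h, 24 h and 7 d. Stk40, a kinase-like protein, had 0.79, 0.41 and 0.15, and Plk3, a polo-like kinase, had 0.78, 0.44 and 0.09. Spry4, an inhibitor of growth factor signaling, had 0.77, 0.39 and 0.22, and Midn, a nuclear protein, had 0.83, 0.40 and 0.19. As in Chrm4, the value of each gene was largest at 2 h and smallest at 7 d, which follows from their choice by nearness to these ratios.

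**Figure D3:**
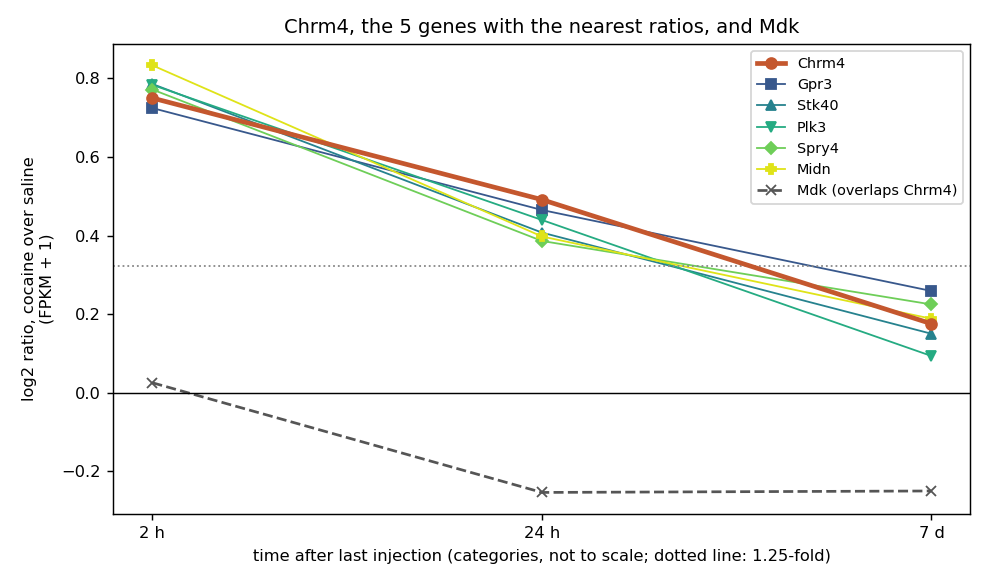
Log2 ratio of cocaine to saline at 2 h, 24 h and 7 d for Chrm4 and the 5 genes nearest to it over the 3 time points, 1 line per gene. A dashed line shows Mdk, which shares the Chrm4 locus span, at 0.03, -0.25 and -0.25. Chrm4 falls from 0.75 at 2 h to 0.18 at 7 d. The lines of the 5 nearest genes fall as well, which follows from their choice by nearness to Chrm4.

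The other genes of acetylcholine signaling were read in 5 lists of 50 gene names, of which 49 were in the tables and 32 passed the filter at each time point. Of these 32, none was past the fold threshold at 2 h, 24 h or 7 d, against the background shares given for all genes, and the median log2 ratios were 0.03, 0.00 and 0.03. Of the 12 other receptor genes, from Chrm5 to the muscle subunits, 0 passed the filter. They summed to 1.37 to 1.93 FPKM per group, with none above 0.876 FPKM (Chrnb1 in saline at 2 h), and Chrnd and Chrng were listed at 0 in every group. Chrnb1 had 0.876 FPKM under saline and 0.389 under cocaine at 2 h, 0.625 against 0.658 at 24 h, and 0.689 against 0.669 at 7 d.

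Of 9 genes for the synthesis, transport and breakdown of acetylcholine, 5 passed the filter. Ache, which breaks acetylcholine down and whose locus is joined with Ufsp1, had 16.4 FPKM under saline and 15.1 under cocaine at 2 h, 15.1 against 15.5 at 24 h, and 14.8 against 14.6 at 7 d. Bche, the second cholinesterase, had 2.26 FPKM under saline and 2.39 under cocaine at 2 h, 2.95 against 2.47 at 24 h, and 3.32 against 4.07 at 7 d, with its largest log2 ratio at 7 d (0.23). The locus that joins Colq, the collagen tail of Ache, with Hacl1 had its largest at 7 d as well (4.33 and 3.39 FPKM, -0.28). Prima1, the membrane anchor of Ache, had a mean under 1 FPKM in each table and so was outside the filter. It had 0.432 FPKM under saline and 0.301 under cocaine at 2 h, 1.16 against 0.437 at 24 h (log2 ratio -0.59), and 0.460 against 0.409 at 7 d. The genes that define cholinergic neurons were near 0. Chat, the enzyme that makes acetylcholine, stood at 0.0912 to 0.193 FPKM, and the 8 cholinergic neuron markers summed to 0.617 to 0.749 FPKM with 0 of 8 within the filter.

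The receptor chaperones and Ly6 proteins, small proteins that bind nicotinic receptors, counted 9 genes within the filter. Their log2 ratios ran from -0.20 to 0.08 at 2 h, -0.17 to 0.04 at 24 h and -0.29 to 0.09 at 7 d. The lowest was Ly6h at 7 d, with 183 FPKM under saline and 149 under cocaine. The 9 genes of Gq signaling and the M-current, which serve Chrm1 and Chrm3, had medians of 0.08, -0.06 and 0.15, and the highest value was that of the calcium release channel Itpr1 at 7 d (54.6 and 65.1 FPKM, 0.25). The 9 genes of Gi signaling and its potassium channels, which serve Chrm2 and Chrm4, had medians of 0.09, 0.03 and -0.01. The highest was the adenylyl cyclase Adcy5 at 7 d (17.9 and 21.5 FPKM, 0.26). At 2 h and 24 h, when Chrm4 was past the threshold, the Gi genes ran from -0.13 to 0.16 and from -0.08 to 0.13.

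**Figure D4:**
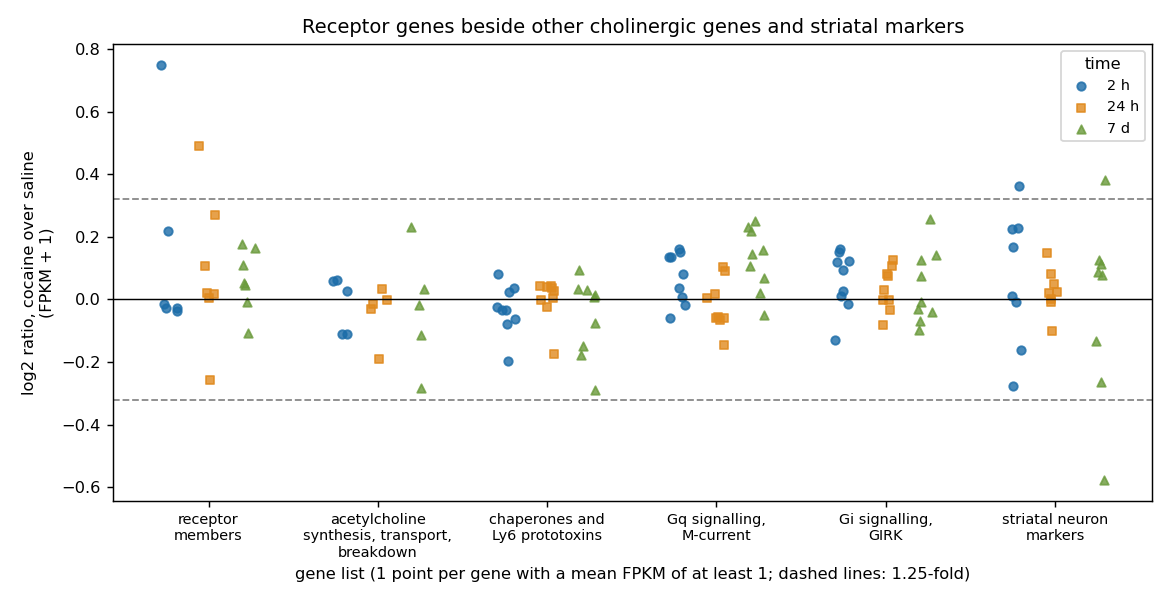
Log2 ratio of cocaine to saline of the genes of acetylcholine signaling within the filter, by list and time point, with dashed lines at the fold threshold, the receptors in the first column and striatal neuron markers in the last. Chrm4 at 2 h and 24 h lies outside the lines, 0 of 32 genes of acetylcholine signaling do at any time point, and the striatal genes outside them are Pde10a at 2 h and Adora2a and Tac1 at 7 d.

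The other cell types that the tissue could hold were read from marker lists beside the receptors, with saline before cocaine in each pair of values. At 2 h, apart from the striatal and red blood cell genes given above, the genes past the fold threshold were Ctgf of deep layer 6 neurons (2.32 and 3.80 FPKM) and the choroid plexus gene Ttr (1.90 and 0.461 FPKM). At 24 h they were Ttr (1.80 and 1.10 FPKM) and 1 of 4 astrocyte genes (Gfap, lower). At 7 d they were Ttr (0.284 and 6.54 FPKM), Fezf2 of layer 5 neurons (7.18 and 5.44 FPKM) and Neurod6 of pyramidal neurons (37.2 and 28.1 FPKM). The markers of interneurons, oligodendrocytes, microglia, endothelium, olfactory bulb granule cells and medial habenula and thalamus had 0 genes past the threshold at any time point. Their part in the receptor values was not tested.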

How the data were processed

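Poly(A) RNA of mouse prefrontal cortex was sequenced in 12 libraries of 5 pooled mice, 2 per group of saline or cocaine at 2 h, 24 h and 7 d (60 mice). After trimming, the authors aligned reads with TopHat2, used those mapping to a unique place and compared groups with Cuffdiff; per the labels the tools were CASAVA 1.8.2, Trimmomatic 0.32, TopHat2 2.0.12 and Cufflinks 2.2.1, whereas the methods name cutadapt. The authors deposited 1 table per time point with a pooled FPKM for each group. The depth per library is unknown from the tables, so precision is limited by 1 value per group. Further columns hold the authors' own fold change, test statistic, p value, q value and significance call, and were not used. The column heads do not say plainly which group is saline. They were assigned by the published lists that name saline and cocaine values, to which 442 of 447 genes at 2 h, 13 of 13 at 24 h and 504 of 509 at 7 d were nearer in this order. The labels name GRCm38 (mm10) and the methods mm9; the loci are on GRCm38, as are the RefSeq tables (GRCm38.p6). The labels name the strain C57BL/6 and the methods C57BL/6 J. The labels give another read length than the methods, and 6 libraries where 12 samples are listed.

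The receptors and gene lists were chosen with earlier results of these data known. Loci without a usable status or a gene name were left out, and a name on several loci took the longest. Log2 ratios used 1 FPKM added to each value, a mean of at least 1 FPKM and a fold threshold of 25%. The shift common to the tables was fitted in R 4.3.3 with limma 3.58.1 (trend, table as a block, Benjamini-Hochberg adjustment) and tested on simulated data. An exact sign-flip test of 3 differences cannot go below p = 0.25. The p values set the mean difference against its spread between tables, which limma estimates with help from all genes. They hold no measure of the spread between libraries. Other steps used Python 3.11.15, pandas 2.3.3 and numpy 2.4.6, and the plots matplotlib 3.10.9. Named were all receptors, list genes past that threshold, the 5 genes nearest to the receptor with the largest ratio, and 4 control genes. The other genes with values (overlapping genes, genes at the ends of a list's range and single markers) were chosen after their values were seen. Alternatives were other pseudocounts, filters, folds and loci, median centring, removal of the transcript length trend in 20 groups, limma without the trend, leaving out each table and, added after seeing the data, genes with a known length only.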

Additional observations from a re-analysis of the deposited data

Results flagged for a closer look

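Chrm2, Chrna3 and Chrna5 stood out because their plain ratios were past the fold threshold in opposite directions at different time points. These ratios were taken without the added 1 FPKM and without the filter. Cocaine also lay on both sides of saline for Chrm3, Chrnb2, Chrna4 and Chrna7, with all plain ratios within the threshold. The plain ratio of cocaine to saline FPKM for Chrm2 was 1.27 at 2 h and 0.702 at 24 h. For Chrna3 it was 0.551 at 2 h and 1.54 at 24 h. For Chrna5 it was 1.63 at 2 h but 0.522 at 24 h, with 0.732 at 7 d. The differences between time points were not tested, because each group is 1 pooled value. All values of Chrna3 and Chrna5 were under 1 FPKM, and those of Chrm2 ran from 0.857 to 1.22 FPKM.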

How the results depend on the processing

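The number of receptors past the fold threshold at 2 h and 7 d, and the number called for a common shift, kept their values under every alternative that was run. At 24 h the number was 2 with a pseudocount of 0.1 FPKM and 2 with none, where Chrm2 joined Chrm4 at log2 ratios of -0.46 and -0.51, and 0 with a fold of 1.5. Other filters, folds and loci, and the limit to genes with a known length, left the ratio of each receptor itself unchanged. Of 172 values of single receptors under an alternative, these unchanged ratios included, 169 kept their side of the threshold. Among them 3 changed sign, Chrna4 at 24 h and Chrnb2 at 7 d, at log2 ratios of at most 0.0108 in size. The log2 ratio of Chrm4 ran over the alternatives from 0.73 to 0.84 at 2 h, 0.48 to 0.55 at 24 h and 0.18 to 0.21 at 7 d. Over all genes the number past the threshold moved further, at 2 h from 1097 to 1734 (pseudocount 0.1), 1833 (none), 543 (mean of at least 5 FPKM), 366 (fold of 1.5) and 613 (length trend taken out). At 24 h it moved from 703 to 1097, 1162, 322, 317 and 288 under the same 5 alternatives, and at 7 d from 1224 to 1951 (no pseudocount), 752, 357 and 408. Among genes with a known length and the trend kept, an alternative chosen after seeing the data, it was 647, 295 and 667. Transcript lengths were found for 84.4%, 83.7% and 83.9% of genes, and the median ratio over the 20 length groups ran from -0.21 to 0.12 at 7 d. The limma calls over all genes were 0, and became 1 with a pseudocount of 0.1, 11 without the table of 2 h, 7 without 24 h and 1 without 7 d, with 0 receptors among them. No paired analysis was possible because the tables hold no column per library. Single pooled values, with a depth unknown from the tables, limit every ratio.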
